A study of Mus musculus with 23 samples.

Results

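The genes described here encode the aminoacyl-tRNA synthetases, the enzymes that load each tRNA with its amino acid. They were chosen by gene symbol, with no measured value used, and number 36 of the 22350 genes in the RNA-seq tables. Of these, 20 encode cytosolic enzymes (*Aars*, *Cars*, *Dars*, *Eprs*, *Gars*, *Hars*, *Iars*, *Kars*, *Lars*, *Mars1*, *Nars*, *Qars*, *Rars*, *Sars*, *Tars*, *Vars*, *Wars*, *Yars*, *Farsa* and *Farsb*). The other 16 have symbols that end in 2 and encode mitochondrial enzymes (*Aars2*, *Cars2*, *Ears2*, *Fars2*, *Hars2*, *Iars2*, *Lars2*, *Mars2*, *Nars2*, *Pars2*, *Rars2*, *Sars2*, *Tars2*, *Vars2*, *Wars2* and *Yars2*). All 36 had enough reads to be tested in each of 6 comparisons.

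A synthetase activates its amino acid with ATP and joins it to the matching tRNA, which then delivers it to the ribosome. Cytosolic synthetases charge tRNAs for proteins encoded in the nucleus, and the mitochondrial ones are imported and charge tRNAs for the few proteins encoded by mitochondrial DNA. *Gars* and *Kars* make both a cytosolic and a mitochondrial enzyme, *Eprs* encodes a fused enzyme for glutamate and proline, and *Farsa* and *Farsb* encode the subunits of the phenylalanine enzyme. Some cytosolic synthetases are bound together in the multisynthetase complex, held by the scaffold proteins AIMP1, AIMP2 and EEF1E1. Raptor, the product of *Rptor*, is a subunit of mTORC1, the nutrient-sensing kinase complex that promotes protein synthesis. Many cytosolic synthetase genes are known targets of ATF4, the transcription factor of the amino acid response, whose production depends in part on mTORC1.

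The data were RNA-seq of mouse intestinal organoids, which are epithelial cultures grown from crypts, and Ribo-seq, which counts mRNA fragments protected by ribosomes (footprints), of organoids and of small intestine. All animals were of strain C57BL/6, and the labels give no age. RNA-seq was made on polyA RNA of WT organoids (VillinCre.ERT2.RPL22.HA, 2 lines), *Rptor* fl/fl organoids (VillinCre.ERT2.Rptor.fl/fl, 2 lines) and stem cell enriched (SCe) organoids (VillinCre.ERT2.RPL22.HA, 3 lines). SCe organoids were cultured with 10 µM CHIR 99021 and 1.5 mM valproic acid. The RNA-seq label of *Rptor* fl/fl organoids does not list the RPL22.HA allele of the WT and SCe groups, so the effects of *Rptor* and of that allele cannot be told apart in RNA-seq. Ribo-seq of organoids compared 3 *Rptor* fl/fl lines (VillinCre.ERT2.Rptor.fl/fl.RPL22.HA) with 3 SCe lines, and no Ribo-seq of WT organoids was analysed here. Genotype and culture therefore differ together between *Rptor* fl/fl and SCe organoids. Ribo-seq in vivo compared 3 mice that carried Lgr5Cre.ERT2.RPL22.HA (WT) with 3 *Rptor* fl/fl mice (Lgr5Cre.ERT2.Rptor.fl/fl.RPL22.HA). Villin drives the tamoxifen-inducible Cre in the whole intestinal epithelium, *Lgr5* drives it in crypt-base stem cells, and Cre switches on the HA tag of the ribosomal protein RPL22 by which ribosomes were pulled down. The labels call the WT and *Rptor* fl/fl samples untreated, while the methods of the study describe induction with tamoxifen. The labels do not say how the organoid lines relate to donor animals, so p-values measure the spread between these lines or mice.

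The reads used came to between 27439432 and 67598842 per line in RNA-seq, between 1106157 and 8257453 in Ribo-seq of organoids, and between 772034 and 8238353 in Ribo-seq of mice. *Rptor* mRNA, in CPM (reads scaled to equal library size with TMM factors), was 51.5 and 47.9 in the WT lines, 14.8 and 15.5 with *Rptor* fl/fl and 60.8, 54.0 and 53.7 in the SCe lines, a log2 change of -1.71 (SE 0.08, adjusted p = 0.00516) against WT. On *Rptor* there were 17.2, 18.7 and 15.9 CPM of footprints in the *Rptor* fl/fl organoid lines and 15.2, 41.8 and 21.0 in the SCe lines, which overlap, so that footprints on *Rptor* do not check the labels of these libraries. In mice the values were 41.5, 39.5 and 44.5 CPM in WT and 32.5, 34.2 and 36.7 CPM in *Rptor* fl/fl mice, without overlap, and the log2 change was -0.28 (SE 0.12, adjusted p = 0.15). SCe line 1 stood apart from SCe lines 2 and 3 in RNA-seq: its summed enterocyte markers were 229 CPM against 5617 and 6474, and its Paneth cell markers 373 CPM against 2572 and 3169. In organoids the Paneth markers lay between 4128 and 4914 CPM in WT, between 743 and 1566 in *Rptor* fl/fl and between 373 and 3169 in SCe, and stem cell markers between 3561 and 5126, between 803 and 2042 and between 826 and 1606. Goblet markers lay between 1554 and 1654, between 2815 and 3873 and between 243 and 426 CPM, and stromal markers reached 113 CPM in SCe against at most 3.07 in the other groups. In organoid footprints stem cell markers lay between 4986 and 5318 CPM in *Rptor* fl/fl and between 1548 and 3043 in SCe, Paneth markers between 4508 and 5992 and between 2025 and 3174, enterocyte markers between 6541 and 7128 and between 810 and 2766, and enteroendocrine markers between 471 and 561 and between 33.0 and 55.5. Stromal markers there reached 9.62 CPM in *Rptor* fl/fl and 807 in SCe. The footprint libraries labelled *Rptor* fl/fl were thus above the SCe ones in all of these but the stromal list, and what part this has in the synthetase footprints and TE was not tested. Immune, smooth muscle and pancreatic acinar markers each summed to at most 27.9 CPM in RNA-seq of organoids. In mice all of the stem cell markers were detected, at 550 to 577 CPM in WT and 347 to 529 in *Rptor* fl/fl, beside 896 to 2252 CPM of acinar markers over both groups. Enterocyte markers lay between 26028 and 26764 CPM in WT and between 28049 and 29163 in *Rptor* fl/fl mice, and goblet markers between 21337 and 21721 and between 24978 and 27945. Immune markers lay between 1108 and 1167 CPM in WT and between 835 and 902 in *Rptor* fl/fl mice. Paneth markers lay between 7137 and 7809 and between 3741 and 5024, and stromal markers between 882 and 947 and between 1110.3 and 1357. Proliferation markers lay between 715 and 764 and between 559 and 664. The stem cell, enterocyte, goblet, immune, Paneth, stromal and proliferation lists did not overlap between the groups. The part of these other cells in the synthetase values was not tested, and in such bulk samples fewer cells of a type and less RNA per cell cannot be told apart.

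ATF4 acts through the C/EBP-ATF response element, and the sites below are shown because the genes that hold them differ in how their mRNA behaved. RefSeq promoter windows (GRCm38.p6, 250 bases before to 50 after the start of a transcript) were matched for 27 of the 36 genes, 13 cytosolic and 14 mitochondrial. The motif TGATGNAA of this element (CARE), searched on both strands, was in 5 of the 13 cytosolic windows (38.5%) and in 0 of the 14 mitochondrial genes, against 1219 of 27025 genes (4.51%). A match in each of these 5 genes, as 30 bases of the gene's own strand with the motif or its reverse complement in capitals, was:
Aars (chr8:111033840-111033869, + strand): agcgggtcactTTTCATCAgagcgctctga
Gars (chr6:55037960-55037989, + strand): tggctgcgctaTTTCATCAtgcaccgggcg
Iars (chr13:49682126-49682155, + strand): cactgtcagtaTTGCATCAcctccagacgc
Tars (chr15:11399655-11399684, - strand): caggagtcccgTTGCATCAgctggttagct
Yars (chr4:129189895-129189924, + strand): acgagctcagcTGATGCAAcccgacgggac
In the stretches printed, the motif stood in the opposite orientation to the gene in *Aars*, *Gars*, *Iars* and *Tars* and in the same orientation in *Yars*. The E-box CACGTG, which reads the same on both strands, was in 4 cytosolic windows (*Aars*, *Farsb*, *Iars* and *Tars*) and in that of *Ears2*, against 8.09% of all genes. The ETS site CCGGAAG was in 5 cytosolic windows (*Farsa*, *Gars*, *Kars*, *Mars1* and *Sars*) and 4 mitochondrial ones (*Cars2*, *Mars2*, *Rars2* and *Sars2*), against 9.93%. The NRF1 site (GCGCA, any base, then GCGC) was in 3 cytosolic windows (*Farsb*, *Kars* and *Tars*) and 2 mitochondrial ones (*Iars2* and *Mars2*), against 5.19%. In *Tars* a match abuts the E-box, and another lies at position -169 from the start. A match describes the letters of the window and is not a measured binding site.

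Levels between genes were compared per length, as the deposited TPM. In WT organoids *Nars*, the asparagine enzyme, was highest with a mean TPM of 210 (range 200.3 to 219), followed by *Sars* (serine, 177) and *Qars* (glutamine, 153), each apart from the next in both lines. The lowest were *Pars2* (proline, 6.28) and *Wars2* (tryptophan, 6.70), whose lines overlapped. The median TPM of the cytosolic genes was 4.33 ± 0.04 (SD, n = 2) times that of the mitochondrial genes in WT, 4.13 ± 0.16 (n = 2) in *Rptor* fl/fl and 5.72 ± 0.31 (n = 3) in SCe organoids, with *Lars2* left out for reasons given below. In footprints this ratio was 9.16 ± 2.09 (n = 3) in *Rptor* fl/fl and 11.7 ± 4.78 (n = 3) in SCe organoids, and 5.38 ± 0.63 and 6.00 ± 1.17 (n = 3 each) in WT and *Rptor* fl/fl mice. The footprint ratios of the groups overlapped within organoids and within mice. *Nars* had the highest mean of the cytosolic genes in every other group too, but it was apart from the next gene only in footprints of *Rptor* fl/fl organoids and of *Rptor* fl/fl mice. The order of footprint TPM moved by up to 15 places in organoids when reads were divided by the full length instead, against at most 2 in RNA-seq, so no finer order is given for footprints.

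**Figure D1:**
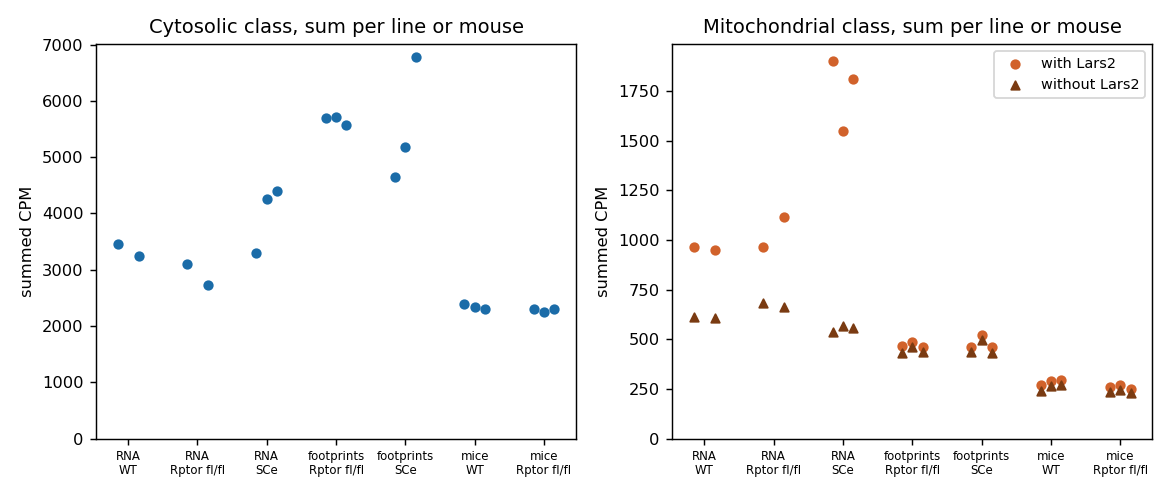
Summed CPM (TMM-scaled) of the 20 cytosolic genes (left) and the 16 mitochondrial genes with and without *Lars2* (right), 1 point for each organoid line or mouse, in RNA-seq and footprints of organoids and in footprints of mice. The mitochondrial sum of RNA-seq in SCe organoids lies at 1547 to 1903 CPM with *Lars2* and at 535 to 569 CPM without it.

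The cytosolic class together held 3455 and 3241 CPM of mRNA in the WT lines, 3104 and 2737 in *Rptor* fl/fl organoids, and 3292, 4265 and 4395 in the SCe lines. Without *Lars2* the mitochondrial class held 614 and 609 CPM in WT, 684 and 664 in *Rptor* fl/fl, and 535, 569 and 558 in SCe. Without *Lars2*, cytosolic over mitochondrial mRNA was thus 5.63 and 5.32 in the WT lines, 4.54 and 4.12 in *Rptor* fl/fl organoids, and 6.15, 7.50 and 7.87 in the SCe lines, and the 3 groups did not overlap. This order depends on leaving *Lars2* out. With it the mitochondrial class held 964 and 949 CPM in WT, 966 and 1116 in *Rptor* fl/fl, and 1903, 1547 and 1809 in SCe. The ratio in SCe then lay below WT and overlapped *Rptor* fl/fl. These sums are a description, with no test.

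The first comparison asked how synthetase mRNA differs when *Rptor* is deleted in organoids. Cytosolic synthetase mRNAs fell in 7 of 20 cases and rose in none, while 2 mitochondrial ones rose and 1 fell. Of all 14131 genes tested with edgeR, 22.6% were called at an adjusted p under 0.05, 11.6% higher and 11.0% lower, and the median log2 change was -0.005. The median was -0.16 over the cytosolic class, with 14 of 20 changes negative, and 0.07 over the mitochondrial class, with 10 of 16 positive, while 50.6% of all genes had a negative and 49.4% a positive change. The 2 lines of each group did not overlap for 11 cytosolic genes that were lower and 2 that were higher in *Rptor* fl/fl, against 34.8% and 34.3% of all genes.

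**Figure D2:**
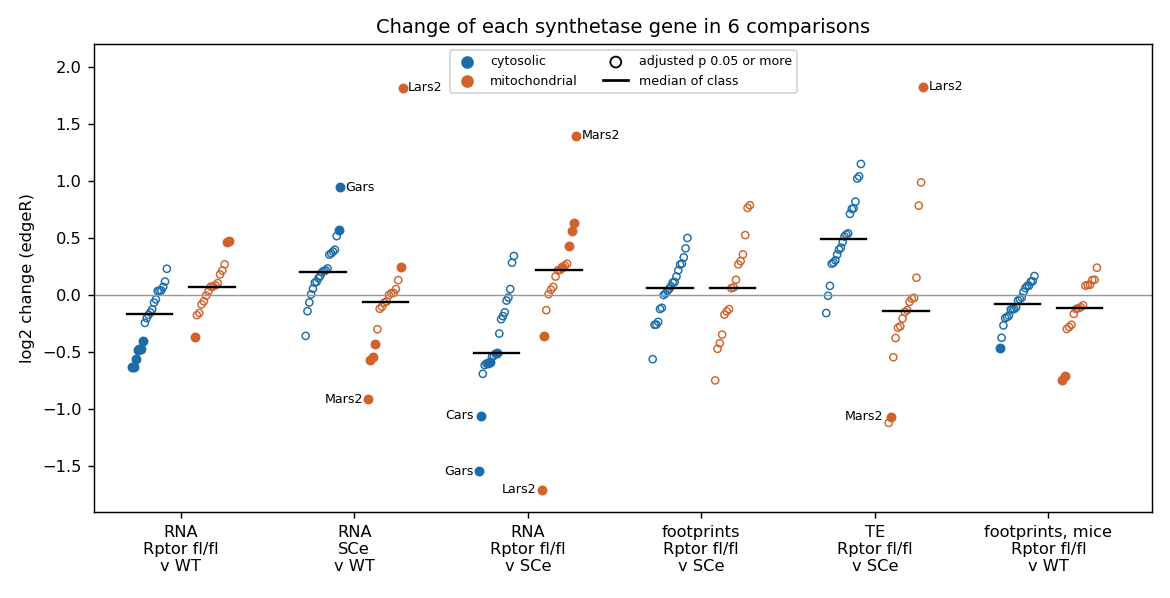
Log2 change (edgeR) of each synthetase gene in the 6 comparisons, cytosolic in blue and mitochondrial in orange. TE is translation efficiency, filled points passed an adjusted p of 0.05, black bars mark class medians, and called genes with a change beyond 0.9 are named. In RNA-seq the cytosolic median lies below the mitochondrial one against WT (-0.16 and 0.07) and against SCe (-0.51 and 0.22).

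Among the cytosolic enzymes outside the multisynthetase complex, 5 of 12 fell. *Aars*, the alanine enzyme, had 212 and 180.5 CPM in the WT lines and 135 and 119 in *Rptor* fl/fl organoids, a log2 change of -0.63 (SE 0.11, adjusted p = 0.0238). *Gars*, the glycine enzyme, went from 241 and 208 CPM to 159 and 131 (-0.63, SE 0.13, adjusted p = 0.0317). In both, every *Rptor* fl/fl line lay below every WT line, and the difference between groups was larger than that between lines. *Tars*, for threonine, went from 185 and 190.0 to 138 and 133 CPM (-0.47, SE 0.06, adjusted p = 0.0142). *Nars*, for asparagine, went from 413 and 377 to 303 and 263 CPM (-0.48, SE 0.10, adjusted p = 0.0328). *Cars*, for cysteine, went from 82.1 and 69.0 to 55.1 and 47.2 CPM (-0.56, SE 0.12, adjusted p = 0.0348). Of these 5 genes, *Aars*, *Gars* and *Tars* hold the CARE motif printed above, and *Nars* and *Cars* have no window in the table. Of the other genes called lower, given below, *Mars1* and *Aars2* have windows without that site and *Rars* has no window. The other genes with that site were not called: *Yars* (tyrosine) changed by -0.24 (SE 0.07, adjusted p = 0.0722) and *Iars* (isoleucine) by 0.04 (SE 0.10, adjusted p = 0.823).

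Of the 8 enzymes of the multisynthetase complex, 2 fell. *Rars*, for arginine, had 204 and 197 CPM in WT and 148 and 141 in *Rptor* fl/fl (-0.47, SE 0.06, adjusted p = 0.0158). *Mars1*, for methionine including that which starts each protein, had 119 and 111 CPM in WT and 92.8 and 81.1 CPM in *Rptor* fl/fl (-0.40, SE 0.09, adjusted p = 0.0355). The other 6 (*Dars*, *Eprs*, *Iars*, *Kars*, *Lars* and *Qars*) had log2 changes between -0.17 and 0.07, and none of them was called. Its scaffold genes *Aimp1*, *Aimp2* and *Eef1e1* gave 0 calls of 3. *Vars*, for valine, had the highest change of the cytosolic class, 0.23 (SE 0.09, adjusted p = 0.137), from 202 and 194 to 250.02 and 214 CPM.

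Among mitochondrial enzymes *Mars2*, for methionine, rose from 76.0 and 74.7 to 102 and 106 CPM (0.46, SE 0.05, adjusted p = 0.0133), while the cytosolic methionine gene *Mars1* fell. *Vars2*, for valine, rose from 50.01 and 47.4 to 69.9 and 65.4 CPM (0.47, SE 0.06, adjusted p = 0.017). *Aars2*, for alanine, fell from 23.6 and 23.6 to 18.8 and 17.9 CPM (-0.36, SE 0.08, adjusted p = 0.0358), as did cytosolic *Aars*. In each of these 3 the lines of the groups did not overlap. The remaining 13 had changes between -0.18 (*Yars2*) and 0.27 (*Nars2*), and the nearest to a call was *Tars2*, with 50.1 and 48.0 against 57.6 and 56.4 CPM (0.22, SE 0.06, adjusted p = 0.0598).

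**Figure D3:**
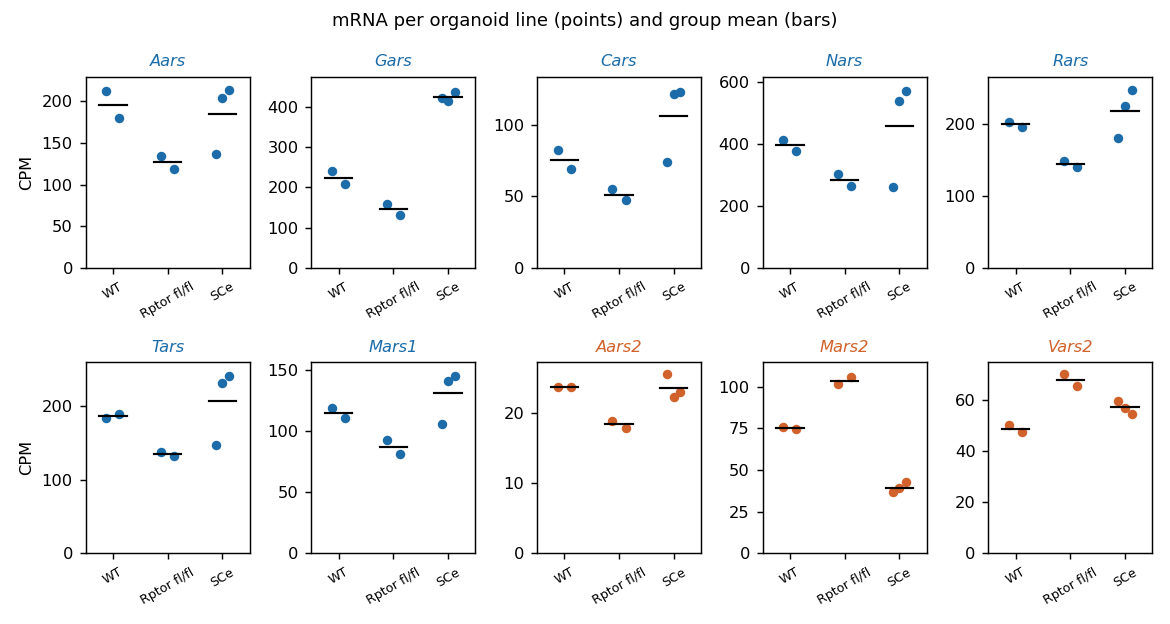
CPM of mRNA (TMM-scaled, each axis from 0) for the 10 synthetase genes called between *Rptor* fl/fl and WT organoids. Points are organoid lines and bars group means, cytosolic genes in blue and mitochondrial ones in orange. For all 10 genes the *Rptor* fl/fl and WT lines do not overlap, and SCe line 1 (leftmost point) lies below the other SCe lines for 6 of the 7 cytosolic genes.

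These calls rest on 2 lines a group and on the estimate of their spread. A fit of all 3 RNA-seq groups, which shares 1 estimate of the spread, called 1 of the 7 cytosolic genes (*Gars*, adjusted p = 0.0305), with adjusted p between 0.094 (*Rars*) and 0.43 (*Nars*) for the others, and still called *Mars2* and *Vars2* but not *Aars2* (0.0657). Without WT line 1 no synthetase was called, and 3 cytosolic and 0 mitochondrial genes were called without WT line 2. Without *Rptor* fl/fl line 2, 1 cytosolic gene rose, 2 fell and 2 mitochondrial genes rose. Without *Rptor* fl/fl line 1, 6 cytosolic genes fell and 1 mitochondrial gene rose. In each of these fits the lone line left in a group was assumed to vary like the others.

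The second comparison set SCe organoids against WT and so asked what the culture with CHIR 99021 and valproic acid goes with. Of 14925 genes, 42.3% were called, 22.4% higher and 19.9% lower, with a median log2 change of 0.02. In the cytosolic class 2 of 20 were called, both higher, and 17 changes were positive with a median of 0.21 (51.5% of all genes were positive and 48.5% negative). *Gars* had 423, 415 and 437 CPM in the SCe lines against 241 and 208 in WT (0.94, SE 0.09, adjusted p = 0.00269). *Kars*, the lysine enzyme, had 172, 196 and 194 against 129 and 127 CPM (0.57, SE 0.09, adjusted p = 0.00711). These are the cytosolic list's genes that also make a mitochondrial enzyme, and no SCe line overlapped a WT line for either.

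In the mitochondrial class 2 genes were called higher and 4 lower in SCe organoids, with a median of -0.06. Of the 16 genes, every SCe line lay above every WT line for 3 and below for 7, against 33.9% and 35.1% of all genes. The 6 called genes are among these. *Mars2* had 36.5, 39.1 and 42.7 CPM against 76.0 and 74.7 in WT (-0.91, SE 0.09, adjusted p = 0.00255), beside 0.46 in *Rptor* fl/fl organoids against the same WT lines. *Yars2* (tyrosine) changed by -0.43 (SE 0.09, adjusted p = 0.0169), *Hars2* (histidine) by -0.54 (SE 0.14, adjusted p = 0.0294) and *Pars2* by -0.57 (SE 0.15, adjusted p = 0.0338), with 7.69, 6.05 and 6.90 against 10.3 and 10.4 CPM for the last. *Vars2* was higher, by 0.25 (SE 0.07, adjusted p = 0.0433). *Lars2*, the leucine enzyme, had the largest change of the 36, 1.82 (SE 0.17, adjusted p = 0.00233), and its reads are examined below.

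SCe line 1 decided much of the cytosolic result. For 13 of the 17 positive changes the SCe and WT lines overlapped. Of the 20 cytosolic genes, every SCe line lay above every WT line for 4 and below for 2, against 33.9% and 35.1% of all genes. SCe line 1 was the lowest SCe line for *Nars* (261, 539.9 and 571 CPM), *Cars* (74.1, 122 and 123 CPM) and *Aars* (137, 204 and 214 CPM). Without it 13 cytosolic genes were called higher and 1 lower, with a median of 0.33, and 2 mitochondrial genes were called higher and 5 lower. Calls over all genes also rose, to as many as 9530 with 1 library left out, against 6309 in the main fit. The rise in synthetase calls is therefore not read as particular to them. Leaving out WT line 1 or WT line 2 left 1 cytosolic and 2 mitochondrial calls, and leaving out SCe line 2 or SCe line 3 left 3 or 2 mitochondrial calls.

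The third comparison set *Rptor* fl/fl against SCe organoids, the groups of the organoid Ribo-seq, and it shares its libraries with the first and the second. Of 15103 genes, 42.7% were called, 21.0% higher and 21.8% lower, with a median of -0.01, and 49.1% had a change above 0 and 50.9% below. The cytosolic class had 0 higher and 5 lower, 17 of 20 changes negative and a median of -0.51. The mitochondrial class had 5 higher and 2 lower, 13 of 16 positive and a median of 0.22. *Gars* had the largest cytosolic change, -1.55 (SE 0.11, adjusted p = 0.00132), followed by *Cars* with -1.06 (SE 0.25, adjusted p = 0.0247). *Kars* changed by -0.51 (SE 0.10, adjusted p = 0.0155), *Rars* by -0.59 (SE 0.15, adjusted p = 0.0278) and *Mars1* by -0.59 (SE 0.17, adjusted p = 0.0386). All 8 enzymes of the multisynthetase complex had a negative change, between -0.59 and -0.02, and 3 of them were called.

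*Mars2* was the most changed of the mitochondrial genes that were higher in *Rptor* fl/fl, by 1.40 (SE 0.09, adjusted p = 0.00107), with lines at 102 and 106 CPM against 36.5, 39.1 and 42.7. *Pars2* was higher by 0.63 (SE 0.17, adjusted p = 0.0326), *Hars2* by 0.56 (SE 0.14, adjusted p = 0.0292), *Cars2* (cysteine) by 0.43 (SE 0.11, adjusted p = 0.027) and *Vars2* by 0.25 (SE 0.08, adjusted p = 0.0494). *Aars2* and *Lars2* were lower, with changes of -0.36 (SE 0.10, adjusted p = 0.0416) and -1.71 (SE 0.27, adjusted p = 0.00702). The lines of the groups did not overlap for 10 mitochondrial genes that were higher and 2 that were lower, against 33.8% and 34.3% of all genes. Without SCe line 1, 13 cytosolic genes were called lower and 1 higher, and 8 mitochondrial genes higher and 2 lower. Calls over all genes reached as many as 9101 with 1 library left out, against 6452 in the main fit. Without either *Rptor* fl/fl line, SCe line 2 or SCe line 3, 1 cytosolic and 2 mitochondrial calls were left, and *Gars*, *Mars2* and *Lars2* were called under every alternative tried.

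Footprints on the coding sequence were then compared between *Rptor* fl/fl and SCe organoids, which asks whether ribosomes on these mRNAs follow the mRNA. Of 10817 genes, 16.5% were called, 6.63% higher and 9.84% lower, with a median of -0.02. No synthetase was called by edgeR, while 3 cytosolic genes and 1 mitochondrial gene had an unadjusted p under 0.05 and DESeq2 called 1 cytosolic gene higher and 1 lower. The medians were 0.06 in both classes, with 14 of 20 cytosolic changes above 0 against 48.6% of all genes (51.4% were below). *Gars* had 418, 435 and 433 CPM of footprints in *Rptor* fl/fl organoids and 696, 463 and 737 in the SCe lines (-0.56, SE 0.21, adjusted p = 0.0971). *Wars*, for tryptophan, had 195, 209 and 194 against 124, 145 and 154 CPM (0.50, SE 0.16, adjusted p = 0.064). In the mitochondrial class *Cars2* had 9.78, 13.2 and 13.4 against 23.3, 17.1 and 20.3 CPM (-0.75, SE 0.24, adjusted p = 0.0664). For each of these 3 the lines of the groups did not overlap, as for 20.0% of all genes with *Rptor* fl/fl higher and 19.3% with it lower, yet the test across all genes was missed.

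The SCe footprint lines varied more than the *Rptor* fl/fl lines. The cytosolic class held 5688, 5711 and 5574 CPM in *Rptor* fl/fl organoids and 4647, 5180 and 6784 in the SCe lines, and *Aars* alone had 336, 328 and 319 against 171, 282 and 391 CPM. The SCe lines likewise spanned all *Rptor* fl/fl lines for *Eprs* (259, 336 and 462 CPM), *Lars* (216, 295 and 490.0 CPM) and *Nars* (460.2, 584 and 899 CPM). The mitochondrial genes rest on few footprints, with as few as 6 for *Wars2* and 11 for *Pars2* in a line, and *Sars2* (serine) ranged from 3.46 to 17.1 CPM in SCe. Without SCe line 1, 1 cytosolic gene was called higher, 1 mitochondrial gene higher and 2 lower. Without SCe line 2, 1 cytosolic gene was called lower, and without SCe line 3, 2 were called higher.

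Translation efficiency (TE), the change in footprints beyond that in mRNA, was tested as the interaction of assay and group in 1 model. The labels list the RPL22.HA allele for the *Rptor* fl/fl lines of Ribo-seq and not for those of RNA-seq. A TE change with *Rptor* fl/fl thus cannot be told apart from this difference between the lines of the assays. The assays also differed in markers. Stem cell markers of *Rptor* fl/fl and SCe lines overlapped in mRNA (803 to 2042 and 826 to 1606 CPM) but not in footprints (4986 to 5318 and 1548 to 3043 CPM). Paneth and enterocyte markers likewise overlapped in mRNA only, while goblet and enteroendocrine markers were higher in *Rptor* fl/fl in both assays. What part this has in TE was not tested. *Rptor* itself had a TE change of 1.43 (SE 0.39, adjusted p = 0.0774). Of 10747 genes, 2.93% were called, 1.12% higher and 1.81% lower, with a median of -0.03, 47.7% of changes above 0 and 52.3% below. In the cytosolic class 18 of 20 changes were above 0 and the median was 0.49, but no gene was called by edgeR, 7 had an unadjusted p under 0.05, and DESeq2 called 3 higher. The largest were *Cars*, 1.15 (SE 0.37, adjusted p = 0.117), *Gars*, 1.04 (SE 0.26, adjusted p = 0.059), and *Nars*, 1.02 (SE 0.46, adjusted p = 0.24). In the mitochondrial class 12 of 16 changes were below 0, with a median of -0.14 (-0.15 without *Lars2*). The model uses the RNA-seq lines of the third comparison, so that a cytosolic gene whose mRNA was lower there enters with the opposite sign here.

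*Mars2* had the lower TE that was called, -1.07 (SE 0.18, adjusted p = 0.0149). Its mRNA in *Rptor* fl/fl organoids was 2.63 times that in SCe, while its footprints were 35.8, 34.4 and 35.7 CPM in *Rptor* fl/fl against 29.2, 31.6 and 27.7 in SCe, a log2 change of 0.27 (SE 0.18, adjusted p = 0.335). *Cars2* moved in the same direction and missed the test, -1.12 (SE 0.27, adjusted p = 0.0528). *Lars2* had the higher TE that was called, 1.83 (SE 0.33, adjusted p = 0.0223), with footprints of 32.3, 26.3 and 26.7 against 29.2, 20.5 and 30.2 CPM (0.07, SE 0.22, adjusted p = 0.863), so that the mRNA was lower in *Rptor* fl/fl while the footprints overlapped.

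**Figure D4:**
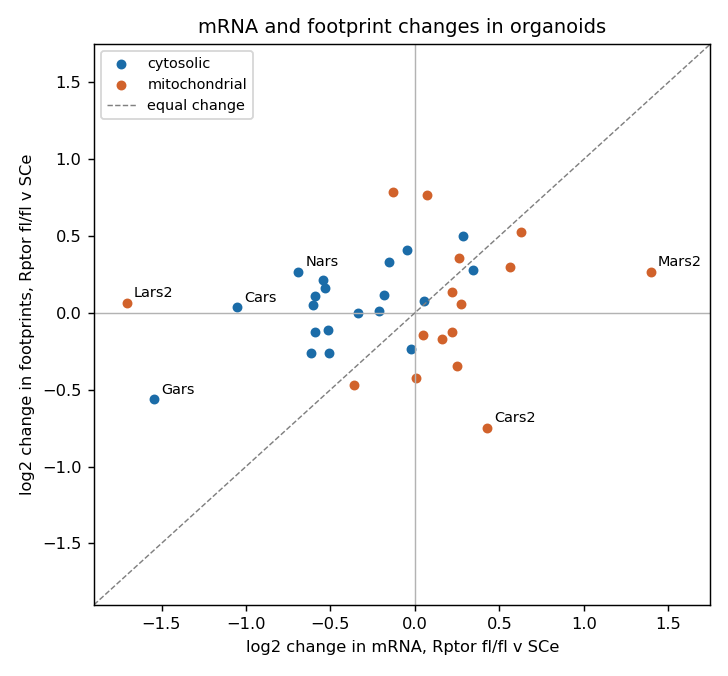
Log2 change in footprints (vertical) against log2 change in mRNA (horizontal) between *Rptor* fl/fl and SCe organoids, 1 point per synthetase gene, cytosolic in blue and mitochondrial in orange. The dashed line marks equal change, and points above it have higher TE in *Rptor* fl/fl. Of the cytosolic genes 18 of 20 have a TE change above 0, *Lars2* has the largest (1.83), and *Mars2* and *Cars2* lie farthest below the line (-1.07 and -1.12).

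The number of TE calls depended on single libraries, and a replicate block ended the calls of *Mars2* and *Lars2*, as given below. Among mitochondrial genes 5 were called without Ribo-seq SCe line 1, 3 without Ribo-seq SCe line 2 or 3, 1 without Ribo-seq *Rptor* fl/fl line 1 or 3, and 0 without RNA-seq *Rptor* fl/fl line 1. Without RNA-seq *Rptor* fl/fl line 2, SCe line 2 or SCe line 3 there was 1. Among cytosolic genes 4 were called higher without RNA-seq SCe line 1, 3 without Ribo-seq SCe line 3 and 1 without Ribo-seq SCe line 1 or 2.

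The mRNA reads of *Lars2* need separate mention. Of them, 75.3% and 77.0% in the WT lines, 66.4% and 83.1% in *Rptor* fl/fl organoids and 93.2%, 88.8% and 93.1% in the SCe lines were assigned to a transcript annotated as a target of nonsense-mediated decay (Lars2-209). The protein-coding Lars2-201 had 86.5 and 78.0 CPM in WT, 94.6 and 76.2 in *Rptor* fl/fl and 93.0, 109 and 86.4 in SCe, which overlap. Lars2-209 had 264 and 262 CPM in WT, 187 and 375 in *Rptor* fl/fl and 1274, 869 and 1164 in SCe, where SCe lay above the other groups. The last exon of Lars2-201, mostly 3′ untranslated, lies at chr9:123461499-123462664 (mm10, + strand). Bases 294 to 691 of its 1166 bases have 18 other matches of at least 85% identity in the genome, 8 of them at 95% or more. Whether reads of this stretch come from *Lars2* was not tested, and the *Lars2* changes in mRNA and TE are uncertain for that reason.

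**Figure D5:**
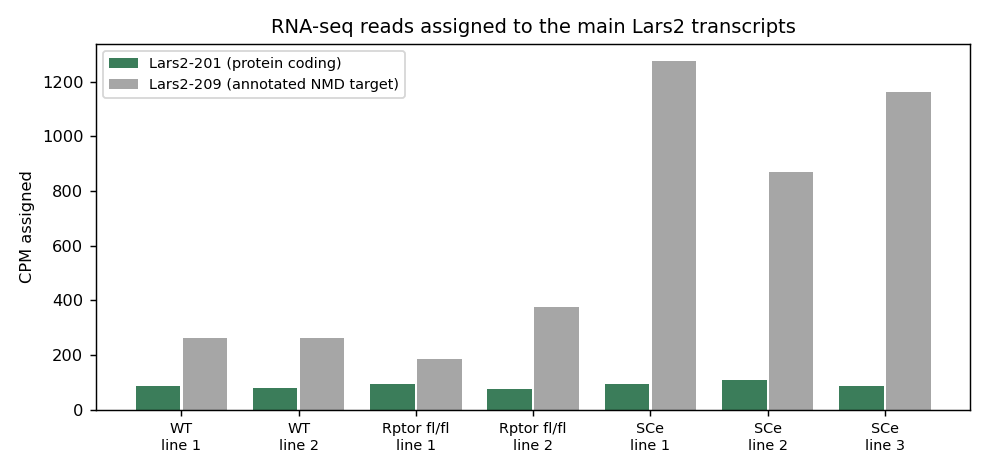
CPM of RNA-seq reads assigned to the protein-coding Lars2-201 (green) and to Lars2-209, annotated as a target of nonsense-mediated decay (NMD, grey), as bars from 0 for each organoid line. Lars2-201 lies between 76.2 and 109 CPM in all 7 lines, while Lars2-209 reaches 869 to 1274 CPM in the SCe lines and at most 375 CPM elsewhere.

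In mice, footprints of the ribosomes pulled down after Cre from *Lgr5* were compared between *Rptor* fl/fl and WT. Of 11515 genes, 13.4% were called, 7.48% higher and 5.97% lower, with a median of -0.02, 48.1% of changes above 0 and 51.9% below. In the cytosolic class 1 of 20 was called, lower, with a median of -0.08, and in the mitochondrial class 2 of 16 were, both lower, with a median of -0.11. *Vars* had 143, 151 and 141 CPM in the WT mice and 97.1, 109 and 108 in the *Rptor* fl/fl mice (-0.47, SE 0.09, adjusted p = 0.00193), without overlap (as for 15.5% of all genes that were lower and 15.6% that were higher), and was called under every alternative tried. In organoids *Vars* was not called in mRNA or footprints, with log2 changes of 0.23 against WT in RNA-seq and 0.08 against SCe in footprints. *Mars2* had 12.6, 13.6 and 19.1 CPM in WT and 13.1, 9.40 and 8.17 in *Rptor* fl/fl mice (-0.74, SE 0.23, adjusted p = 0.0415). *Yars2* had 8.81, 16.4 and 15.3 and 10.5, 7.27 and 9.18 CPM (-0.71, SE 0.22, adjusted p = 0.0448). For both mitochondrial genes the groups overlapped, and neither was called without WT mouse 2 or 3 or without *Rptor* fl/fl mouse 2 or 3.

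None of the 7 cytosolic genes called lower in organoid mRNA was called in mouse footprints, where 4 of them (*Aars*, *Gars*, *Nars* and *Rars*) had changes above 0 and 3 (*Cars*, *Mars1* and *Tars*) below. *Aars* had 138, 134 and 152 CPM in WT and 144, 145 and 156 in *Rptor* fl/fl mice (0.06, SE 0.09, adjusted p = 0.717, 95% interval -0.12 to 0.24), and *Gars* 125, 129 and 121 and 137, 121 and 124 CPM (0.03, SE 0.09, adjusted p = 0.889, 95% interval -0.16 to 0.21). The groups overlapped for both, and organoid mRNA and mouse footprints differ in quantity measured, cells and Cre driver. *Yars* and *Mars1* had the next lowest values of the cytosolic class after *Vars*, -0.37 (SE 0.13, adjusted p = 0.0803) and -0.27 (SE 0.11, adjusted p = 0.141), without overlap but not called. Without *Rptor* fl/fl mouse 3, 2 cytosolic genes were called lower. The cytosolic class held 2246 to 2384 CPM over all 6 mice, and WT mouse 1, the shallowest library, had 0 footprints on *Pars2*, which allows up to 3.

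Other genes of tRNA charging and of the amino acid response were taken from 6 lists of 29 genes, chosen with earlier results of these data known. Of 8 genes of the amino acid response, 6 fell in mRNA between *Rptor* fl/fl and WT organoids, with a list median of -0.99. Of all genes, 11.0% were called lower in that comparison. *Atf4* itself had 279 and 227 CPM in WT and 177 and 169 in *Rptor* fl/fl (-0.55, SE 0.11, adjusted p = 0.0332). *Trib3*, a pseudokinase induced by ATF4, went from 31.6 and 18.2 to 3.29 and 3.53 CPM (-2.87, SE 0.30, adjusted p = 0.0111), and *Asns*, asparagine synthetase, from 173 and 164 to 115 and 92.2 CPM (-0.70, SE 0.12, adjusted p = 0.0233). *Phgdh*, *Chac1* and *Ddit3* also fell, while *Psat1* and *Sesn2* were not called. Against SCe organoids 4 of the 8 were lower in mRNA and 1 (*Ddit3*) higher, where 21.8% and 21.0% of all genes were. Yet in footprints 3 of 7 were higher in *Rptor* fl/fl and none lower, against 6.63% and 9.84% of all genes. *Atf4* there had 75.8, 53.6 and 56.9 CPM of footprints in *Rptor* fl/fl and 13.5, 23.0 and 28.2 in SCe lines (1.49, SE 0.28, adjusted p = 0.00899), and *Trib3* and *Chac1* were called as well. In TE *Psat1*, *Phgdh* and *Trib3* were higher and none was lower, and in mice 1 of 7 was lower (*Trib3*, -0.94 (SE 0.26, adjusted p = 0.025)). Of all genes, 1.12% were called higher in TE and 5.97% lower in mice.

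SCe organoids differed from WT in the same list, with *Psat1* and *Phgdh* higher in mRNA and *Atf4*, *Trib3*, *Chac1* and *Ddit3* lower. Of all genes, 22.4% were called higher and 19.9% lower there. Of the 5 synthetases with a CARE motif 1 was called in that comparison, *Gars*, which was higher, where 42.3% of all genes were called. *Aars* was at -0.06 (SE 0.22, adjusted p = 0.833), *Tars* at 0.17 (SE 0.23, adjusted p = 0.595), *Iars* at 0.40 (SE 0.22, adjusted p = 0.207) and *Yars* at 0.38 (SE 0.20, adjusted p = 0.184).

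The remaining lists gave few calls, beside 22.6% of all genes called between *Rptor* fl/fl and WT organoids. The shares over all genes were 42.3% between SCe and WT and 42.7% between *Rptor* fl/fl and SCe. Between *Rptor* fl/fl and WT organoids, 0 of 3 scaffold genes, 0 of 4 mitochondrial charging genes, 0 of 4 eEF1 delivery factors, 1 of 5 genes of CCA addition, proofreading and export (*Prorsd1*, -0.66 (SE 0.12, adjusted p = 0.025)) and 2 of 5 genes of the selenocysteine route (*Pstk* and *Sephs2*) were called, all lower. Between SCe and WT, *Gatb* of mitochondrial glutamine charging (0.61, SE 0.08, adjusted p = 0.00523) and the selenocysteine elongation factor *Eefsec* (0.78, SE 0.07, adjusted p = 0.00229) were higher, and *Pstk* and *Sepsecs* lower. Between *Rptor* fl/fl and SCe, *Eef1e1*, *Gatb*, *Sephs2* and *Eefsec* were lower and *Sepsecs* and *Eef1a1* higher. Neither footprints nor TE in organoids gave a call in these 5 lists, and in mice *Eef1g* was lower (-0.35, SE 0.08, adjusted p = 0.00569). The shares over all genes were 16.5% in organoid footprints, 2.93% in TE and 13.4% in mice.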

How the data were processed

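Of 23 libraries, 11 were RNA-seq and 12 Ribo-seq. The authors trimmed reads (cutadapt 1.18, per the labels) and quantified them against GENCODE vM21 transcripts (genome build mm10) with Salmon 1.1.0. The deposited files give expected counts (NumReads) and TPM per transcript, with lengths. Effective length was length minus 249 bases in every library, footprint libraries included, which affects footprint TPM. Organoid footprints were deposited for coding sequences, with 5′ entries apart that were left out here. The mouse files hold no separate 5′ entries, and their entries appear to include the 5′ region. The paper's methods describe a Ribo-seq reference with untranslated regions trimmed off. Expected counts were summed per gene and rounded, and 2 technical libraries of each WT and *Rptor* fl/fl RNA-seq line were summed. The deposited table of translation efficiency holds the authors' own comparison and was not used.

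Genes were filtered (filterByExpr), scaled by TMM and tested with edgeR 4.0.16 in R 4.3.3 (quasi-likelihood, two-sided, Benjamini-Hochberg over all genes tested, threshold 0.05), with checks on simulated data. TE was the interaction of assay and group. Alternatives were DESeq2 1.42.0, other scalings and filters, a length offset, a replicate block, pooled fits, unsummed technical libraries and each library left out. Groups were said not to overlap where every sample of 1 lay above every sample of the other. Called members were named, with values per library for the 6 cytosolic and 4 mitochondrial members of smallest adjusted p, and others named were given with their values. The members and lists were chosen with earlier results of these data known. For the members, the choice was by gene symbol and used no measured value. Intervals are at 95%, and a count of 0 allows up to 3 reads, for counting error only. A further promoter stretch is not reported here.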

Additional observations from a re-analysis of the deposited data

Results flagged for a closer look

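*Lars2* and *Mars2* differed between assays in the comparison of *Rptor* fl/fl with SCe organoids, by the test of the interaction in edgeR. For *Lars2* the footprint change was 1.83 above the mRNA change in log2 units (adjusted p = 0.0223), and for *Mars2* the difference was -1.07 (adjusted p = 0.0149). The *Lars2* value carries the uncertainty of its mRNA reads given above. Both values carry the differences between assays in the RPL22.HA label and in cell type markers, and a replicate block ended both calls, as given below.

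The 5′ entries of the organoid footprint files, which no comparison used, held more than 3 footprints for 10 of the 36 genes in each of the 6 libraries.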

How the results depend on the processing

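No called value reversed its direction under the alternatives. Between *Rptor* fl/fl and WT organoids, a fit of all 3 RNA-seq groups called 1 cytosolic gene (1544 of all genes), and technical libraries kept apart called 11 cytosolic and 7 mitochondrial genes (7208 of all). Between SCe and WT, DESeq2 called 4 cytosolic genes and unsummed technical libraries 7, and total counts without TMM called 2 mitochondrial genes. Between *Rptor* fl/fl and SCe, DESeq2 called 10 cytosolic genes and total counts without TMM 2 mitochondrial ones. DESeq2 called 2 cytosolic genes in organoid footprints, 3 in TE and 0 mitochondrial genes in mice. TE calls over all genes, 315 in the main analysis, were 1205 with DESeq2, 206 without TMM and 117 with a length offset (60 higher and 57 lower, against 120 and 195). In mice, 2 cytosolic genes were called without TMM, which also turned the split over all genes from 861 higher and 687 lower to 594 and 1059. The ratio of class medians in *Rptor* fl/fl organoids was 4.31 per full length.

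No label says what a replicate number shares, and the RNA-seq comparisons share only 2 numbers, so the numbers were not taken as pairs. Deviations of same-numbered RNA-seq lines nonetheless correlated, by 0.41 for *Rptor* fl/fl with WT, 0.26 and 0.25 for SCe with WT, and 0.39 and 0.37 for *Rptor* fl/fl with SCe. This is a hint from the data and not from the labels. The paper's methods mention paired samples, obtained by inducing further *Rptor* fl/fl animals in vitro, but do not say which libraries these were. The labels give the WT and *Rptor* fl/fl lines different genotypes. The correlations were -0.04, 0.03 and 0.05 between footprint groups of organoids, 0.23, 0.098 and 0.17 between footprints and mRNA of SCe lines, -0.095 and -0.072 between those of *Rptor* fl/fl lines, and -0.06 to -0.003 in mice. A replicate block called 8 cytosolic and 4 mitochondrial genes between *Rptor* fl/fl and WT, 1 and 2 between SCe and WT (3154 of all), and 1 and 2 between *Rptor* fl/fl and SCe (3413 of all, difference of class medians -0.61). With the block there were 0 mitochondrial calls in TE (4 of all), which ended the calls of *Mars2* (-1.14, adjusted p = 0.158) and *Lars2* (1.83, adjusted p = 0.161), and 0 in mice. The causes were not tested.

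Leaving out 1 library at a time gave 0 to 6 cytosolic, 0 to 2 mitochondrial and 939 to 2126 calls over all genes between *Rptor* fl/fl and WT, with a difference of class medians (cytosolic minus mitochondrial) of -0.31 to -0.12. For SCe against WT these were 1 to 14, 2 to 7, 2027 to 9530 and 0.20 to 0.40. For *Rptor* fl/fl against SCe they were 1 to 14, 2 to 10, 2509 to 9101 and -0.84 to -0.60. In organoid footprints they were 0 to 2, 0 to 3, 669 to 2682 and -0.23 to 0.24, in TE 0 to 4, 0 to 5, 25 to 946 and 0.45 to 0.99, and in mice 1 to 2, 0 to 2, 897 to 1954 and -0.02 to 0.09. Of the values of named genes, with a library left out 86 kept their side of the threshold and 94 missed it in the same direction, and under other settings 206 and 49. Low footprint counts of mitochondrial genes limit what the Ribo-seq can show.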

Other observations

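The share of a gene's organoid footprints that lay on its 5′ entries differed between synthetases. It ranged over the 6 libraries from 10.2% to 28.2% for *Nars2*, from 4.94% to 16.1% for *Vars2*, from 2.26% to 10.1% for *Wars* and from 3.95% to 6.23% for *Aars*. These shares rest on 9 to 31 footprints a library for *Nars2* and 5 to 22 for *Vars2*. At the other end, it was 0% in every library for *Yars*, *Farsb*, *Ears2* and *Mars2*. *Gars*, *Rars*, *Farsa*, *Aars2*, *Rars2*, *Sars2*, *Wars2* and *Yars2* have no 5′ entry. Over all genes the share was 2.97% to 6.98%.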
